A study of Homo sapiens with 4 samples.

Results

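The genes described here encode axon guidance ligands and their receptors: semaphorins with plexins and neuropilins, ephrins with Eph receptors, netrins with UNC5 receptors, DCC and NEO1, and Slits with Robo receptors. The families were chosen with earlier results of these data known, their members were then taken by symbol, and 72 rows of the deposited table carried such a name. Of these, 63 reached a mean of 10 normalised counts across the 4 libraries and were tested, among 20250 tested genes of 56832 in the table. The normalised count is a read count divided by 1 size factor per library. The cells were A375, an established human melanoma line labelled wild type, kept in DMEM with 10% fetal bovine serum. One group received 1 mM octanoate, a saturated medium-chain fatty acid, for 48 h, and the other received only the solvent, isopropanol, for the same time. Each group had 2 libraries. The labels do not say whether these came from separate cultures, so p-values measure the spread between these libraries, which may be technical.

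Guidance cues were named for steering growing axons, where they attract or repel the growth cone. The same ligands and receptors act outside the nervous system: they set cell adhesion, movement and boundaries, shape blood vessels, and guide cells of the neural crest, the embryonic tissue from which melanocytes come. Most receptors work through small GTPases and the actin cytoskeleton, and the Eph receptors are tyrosine kinases whose ligands sit on neighbouring cells. Neuropilins also bind VEGF.

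Recovered read totals were 67785956 to 78005035 per library. The melanoma lineage factor SOX10 was at 37790 to 41363 normalised counts in vehicle and 34072 to 39112 in octanoate and was not called, while the pigment gene TYR was at 1.93 to 3.93 in the 4 libraries. Of 12 melanoma and melanocyte markers, 11 had a mean of at least 10, and their summed level was 77959 to 84360 in vehicle and 75983 to 81707 in octanoate. That sum holds changes in both directions: S100B (log2 difference -1.12), NGFR (-0.63) and MITF (-0.48), the lineage regulator, were lower, and AXL (0.42) and PMEL (0.55) were higher, with limma adjusted p from 9.15e-12 for S100B to 0.0289 for PMEL. Of 6 blood cell markers, 1 had a mean of at least 10, and their summed level was 29.1 to 37.3 in vehicle and 27.9 to 29.3 in octanoate. Of 6 epithelial markers, 4 had a mean of at least 10. The summed level of the 6 was 1029 to 1206 in vehicle and 288 to 330 in octanoate. Most of it was the keratin gene KRT14, called lower, at 942 to 1110 in vehicle and 218 to 266 in octanoate. ESRP1 was also called lower, at 29.1 to 31.4 in vehicle and 11.9 to 17.3 in octanoate. EPCAM, at 29.1 to 31.8 in every library, and CDH1 were not called. For 6 endothelial markers, 5 of them at that mean, the summed level was 260 to 264 in vehicle and 377 to 404 in octanoate. PECAM1 and VWF were called higher, while CDH5, at 8.66 to 21.7, TEK and CLDN5 were not called. For 6 neuron markers, all at that mean, the summed level was 461 to 484 in vehicle and 596 in both octanoate libraries. SNAP25 and STMN2 were called higher. RBFOX3, at 16.3 to 39.7, had a log2 difference of -0.71, GAD1 one of -0.26, SYN1 one of 0.036 and SLC17A7 one of 0.45, and none of these was called. The part of these marker genes in the differences described here was not tested. In RNA from whole cultures, fewer cells that express a gene and less RNA per cell cannot be told apart.

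Of the 63 genes, 36 differed between octanoate and vehicle at an adjusted p under 0.05 (limma on log2(normalised count + 1), two-sided, Benjamini-Hochberg over all tested genes). Over all tested genes this share was 29.9%. Among the members, 24 were higher under octanoate, where 16.2% of all tested genes were, and 12 were lower, where 13.7% were. Calls were more frequent among abundant genes: 52 members had a mean of at least 100, as had 13482 of all tested genes, and in that range 33 members were called, against 38.3% of all genes. The median log2 difference of the 63 was 0.14, against 0.0050 over all tested genes. Octanoate and vehicle libraries did not overlap for 54 members, where this held for 63.1% of all tested genes. Ligand genes were called in 16 of 32 cases, 11 higher and 5 lower, and receptor genes in 20 of 31, 13 higher and 7 lower.

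A log2 difference of at least 0.5 in size was called for 22 members, where 11.2% of all tested genes reached it. Of these 18 were higher (7.33% of all tested genes) and 4 lower (3.88%). The 9 that changed at least 2-fold were SEMA3D, SEMA3F, SEMA6A, PLXNA2, EPHA1 and EPHA5, which rose, and UNC5C, SEMA6D and EPHB3, which fell. Over all tested genes 4.21% did so. In the authors' deposited table, 28 of the 63 members had an adjusted p under 0.05, each with the sign found here, where 12.9% of all 33533 genes in that table did. Those 33533 also include genes below the minimum mean that the members passed, so the share is not a like background. The 8 members called only by limma were EPHA1, EPHA5, EFNA3, NTN1, PLXNA3, SEMA6B, SEMA4G and SEMA6D. Without an intensity trend in limma's variance prior, 16 of the 36 calls remained, where 8.02% of all tested genes were called, and the same 16 held under every other alternative tried: EPHA2, EPHA4, EPHB3, EPHA7, ROBO2, ROBO3, ROBO4, UNC5B, UNC5C, PLXNA2, SEMA3A, SEMA3D, SEMA3F, SEMA3G, SEMA6A and SEMA7A. With no filter on low genes 21 of the 36 remained, where 5.97% of 43449 genes were called. That share also includes genes below the minimum mean that the members passed, so it is not a like background. All 36 and a further 7 were called with a replicate block, where 41.4% of all tested genes were. After trends with base composition and length were taken out, all 36 and a further 7 (partly different genes) were called, where 42.5% of 15141 genes were. That fit covered only part of the tested genes, so it is no check over all of them.

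**Figure D1:**
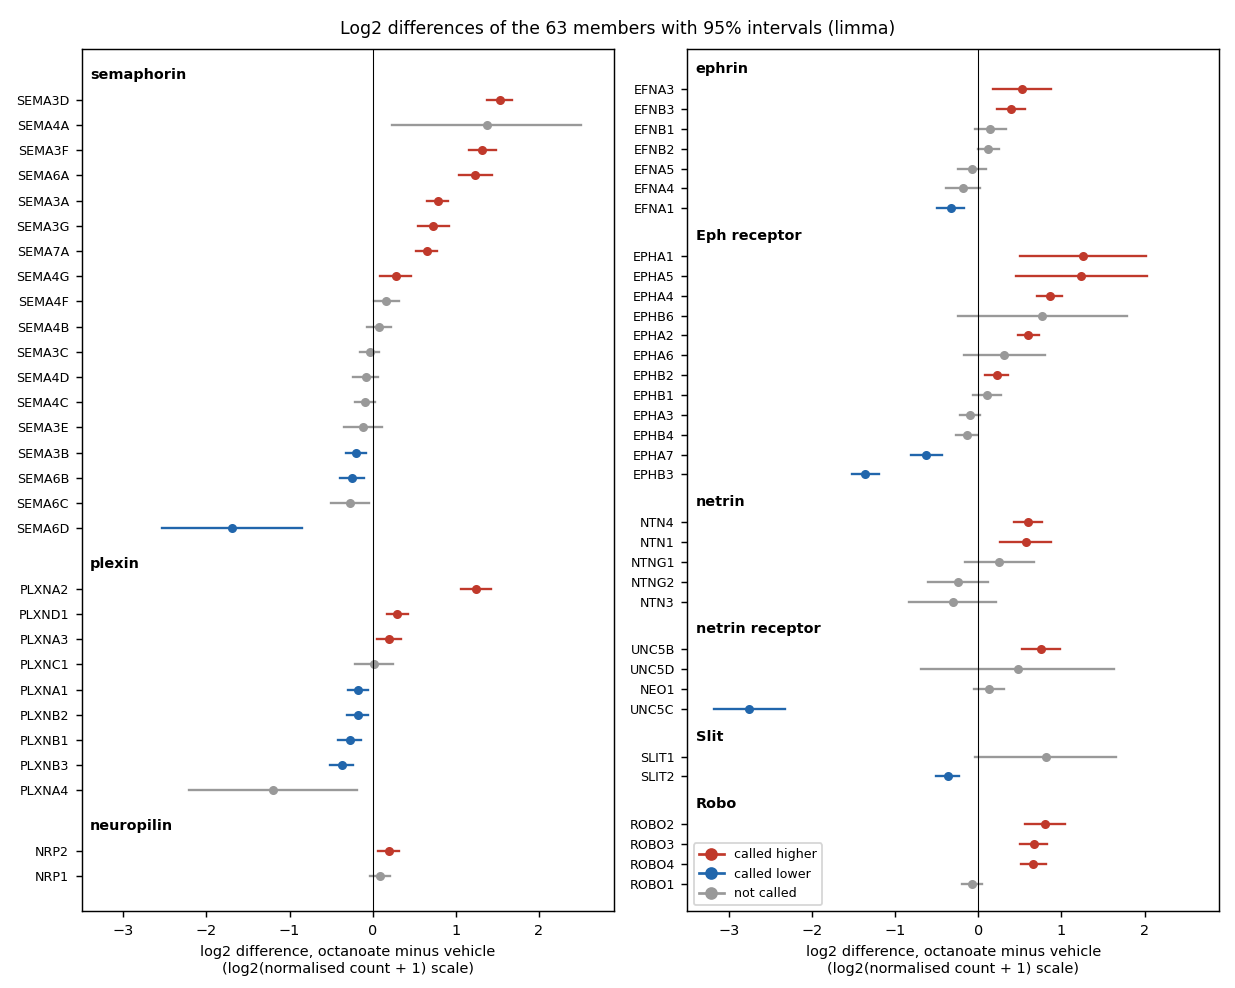
Log2 difference (octanoate minus vehicle, x axis) of each of the 63 members by family, as points with 95% limma intervals, red where called higher, blue where called lower and grey where not called. UNC5C lies lowest at -2.75 and SEMA3D highest at 1.53, and the 3 plexin B genes all lie below 0.

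**Figure D2:**
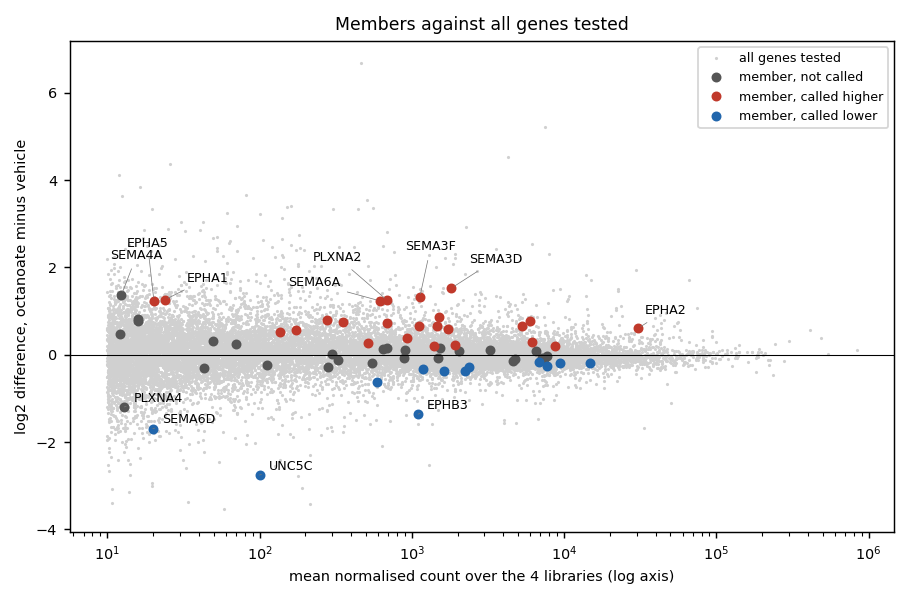
Log2 difference (y axis) against the mean normalised count (x axis, log scale) for all 20250 tested genes as small light grey points and the members as larger points, red where called higher, blue where called lower and dark grey where not called. Of the 63 members, 32 have a mean of at least 1000, and EPHA2 is the most abundant.

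The promoter bases of 3 genes are printed here because these genes moved by at least 2-fold, had a mean of at least 100, and had 1 start in the RefSeq table (GRCh38.p14) with at most 30 bases of the window inside the GENCODE 29 gene. PLXNA2 and SEMA3D rose and EPHB3 fell. Each run holds the 250 bases before the start, 5′ to 3′ on the gene's strand. Capitals mark a GC box, the letters GGGCGG on either strand. The windows are chr1:208244385-208244634 (minus strand) for PLXNA2, chr7:85187057-85187306 (minus strand) for SEMA3D and chr3:184561535-184561784 (plus strand) for EPHB3.
PLXNA2: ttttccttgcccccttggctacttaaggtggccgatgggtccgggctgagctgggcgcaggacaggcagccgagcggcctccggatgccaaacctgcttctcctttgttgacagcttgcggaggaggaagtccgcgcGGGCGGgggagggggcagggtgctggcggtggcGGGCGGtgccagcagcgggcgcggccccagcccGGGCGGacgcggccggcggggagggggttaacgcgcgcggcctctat
SEMA3D: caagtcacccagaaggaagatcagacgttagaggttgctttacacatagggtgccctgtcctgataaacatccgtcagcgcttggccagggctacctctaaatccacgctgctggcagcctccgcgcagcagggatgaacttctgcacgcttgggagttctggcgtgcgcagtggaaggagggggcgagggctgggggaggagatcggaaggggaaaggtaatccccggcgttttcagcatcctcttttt
EPHB3: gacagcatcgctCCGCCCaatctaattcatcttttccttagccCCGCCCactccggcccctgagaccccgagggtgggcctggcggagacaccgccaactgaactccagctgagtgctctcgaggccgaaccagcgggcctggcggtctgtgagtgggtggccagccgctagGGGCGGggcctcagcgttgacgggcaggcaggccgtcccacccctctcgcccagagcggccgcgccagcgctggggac
PLXNA2 and EPHB3 each held 3 GC boxes and SEMA3D held none in this window. GC content was 72.4% for PLXNA2, 70.0% for EPHB3 and 57.6% for SEMA3D, and the median over the 35116 promoters of the table was 58.0%. The table held 85 promoters for 53 of the 63 members, and 61 of them (71.8%) held a GC box, against 42.6% of all promoters. These 61 belong to 47 members, of which 18 were called higher, 10 were called lower and 19 were not called. For this and the other motifs, the share over all promoters was taken without the minimum mean that the members passed, so it is not a like background. The AP-1 motif TGANTCA was found in 1 member promoter (1.18%, against 6.57% of all), that of PLXNC1. The composite ATF4 motif TGATGNAA was found in 2 (2.35%, against 3.14%), those of SEMA3C and SEMA4A. PLXNC1, SEMA3C and SEMA4A were not called. The cyclic AMP motif TGACGTCA was found in 3 (3.53%, against 1.65%), those of EPHA2 (called higher), SEMA3B (called lower) and SEMA4C (not called). The E-box CACGTG was found in 3 (3.53%, against 6.34%), those of SEMA3E, SEMA4D and SEMA6D, of which only SEMA6D was called, lower. The TATA motif TATAAA was found in 3 (3.53%, against 10.7%), those of EFNB2, EPHA7 and SEMA3E, of which only EPHA7 was called, lower. The PPAR direct repeat was found in none, and in 0.0171% of all promoters. All motifs were searched on both strands. A match describes the letters only, and which start A375 cells use was not tested.

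Semaphorins are ligands that mostly repel. Those of class 3 are secreted and bind neuropilins joined to class A plexins, those of classes 4 and 6 span the membrane, and SEMA7A is held by a lipid anchor. Of 18 tested members, 7 were higher and 3 lower. Beside this and each later family count stand the shares over all tested genes, 16.2% higher and 13.7% lower. Of all tested genes with a mean of at least 100, 38.3% were called. Among the 7 class 3 genes, 4 rose and 1 fell. SEMA3D had the largest rise of all members. Its normalised counts were 903 and 972 in vehicle and 2594 and 2817 in octanoate, a 2.88-fold difference (log2 difference 1.53, SE 0.072, limma adjusted p 4.29e-14). Both octanoate libraries lay far above both vehicle libraries. The gene lies at chr7:84995553-85186855 on the minus strand (GENCODE 29, GRCh38).

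SEMA3F, whose product prefers NRP2 as receptor, had 665 and 626 normalised counts in vehicle and 1683 and 1539 in octanoate, a 2.49-fold rise (log2 difference 1.32, SE 0.078, limma adjusted p 3.80e-12). It lies at chr3:50155045-50189075 on the plus strand. SEMA3A, whose product prefers NRP1, was at 4370 and 4364 in vehicle and 7207 and 7815 in octanoate, a 1.72-fold rise (log2 difference 0.78, SE 0.059, limma adjusted p 3.04e-10). The vehicle libraries were nearly equal, and the octanoate libraries were both well above them. SEMA3G had 550 and 484 normalised counts in vehicle and 823 and 894 in octanoate (log2 difference 0.73, SE 0.090, limma adjusted p 8.76e-07).

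The class 3 genes with the highest levels per length were not called higher. SEMA3B, a candidate tumour suppressor beside SEMA3F on the short arm of chromosome 3, led the family at 37.8 and 36.8 RPKM (reads scaled by exon length and library total) in vehicle and 32.7 and 31.9 in octanoate. Its normalised counts were 16464 and 15331 in vehicle and 14168 and 13519 in octanoate (log2 difference -0.20, SE 0.058, limma adjusted p 0.0111). That call was lost without vehicle 1 (limma adjusted p 0.131) and without octanoate 2 (limma adjusted p 0.134). SEMA3C had a log2 difference of -0.035 (95% interval -0.15 to 0.083) and SEMA3E one of -0.12 (-0.34 to 0.11), and neither was called. SEMA3E, which signals through PLXND1 without a neuropilin, shares stretches of sequence with 93 other genes, so its count is uncertain.

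In class 6, 1 gene rose and 2 of the other 3 fell. SEMA6A, a ligand of PLXNA2 and PLXNA4, had 344 and 391 normalised counts in vehicle and 810 and 926 in octanoate, a 2.35-fold rise (log2 difference 1.24, SE 0.097, limma adjusted p 5.15e-10). It lies at chr5:116443616-116574934 on the minus strand. SEMA6D went the other way on few reads, 24 and 40 in vehicle and 9 and 8 in octanoate (log2 difference -1.69, SE 0.41, limma adjusted p 0.00251). Without vehicle 2 its log2 difference was -1.35 and its call was lost (limma adjusted p 0.0764). SEMA6B, abundant at 9009 and 7847 normalised counts in vehicle and 7675 and 6543 in octanoate, had a log2 difference of -0.25 (limma adjusted p 0.0109). The groups barely separated, and the call was lost without vehicle 1 (limma adjusted p 0.226), without octanoate 2 (0.253) and with DESeq2 on recovered reads (0.160). SEMA6C was not called (log2 difference -0.27, limma adjusted p 0.0719).

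SEMA7A, which binds PLXNC1 and integrins, rose from 4208 and 3976 normalised counts to 6687 and 6151, a 1.57-fold difference (log2 difference 0.65, SE 0.061, limma adjusted p 1.29e-08). Per length it stood second of the family in both octanoate libraries, at 16.8% and 16.2% of the summed semaphorin level, where SEMA6B stood second in vehicle.

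In class 4, 1 of 6 members was called. SEMA4G was at 468 and 458 normalised counts in vehicle and 570 and 553 in octanoate (log2 difference 0.28, limma adjusted p 0.0250). Of its exon bases, 22.3% lie opposite exons of MRPL43 and 5.16% opposite AL133215.1. The SEMA4G call was lost without any 1 of the 4 libraries (log2 differences 0.25 to 0.30). SEMA4B, SEMA4C and SEMA4D, the last a ligand of PLXNB1, had log2 differences of 0.081, -0.090 and -0.084, each with a 95% interval within 0.5 of 0. SEMA4F was not called (log2 difference 0.17, limma adjusted p 0.0998), but was called without vehicle 1 (0.26, 0.0389). SEMA4A rested on 3 and 12 reads in vehicle and 15 and 19 in octanoate (limma adjusted p 0.0643), and was called without vehicle 2 (0.00987) and with TMM factors (0.0463).

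Plexins are the signalling receptors for semaphorins. Of 9, 3 were higher and 4 lower. PLXNA2 had 419 and 399 normalised counts in vehicle and 932 and 1013 in octanoate, a 2.37-fold rise (log2 difference 1.25, SE 0.088, limma adjusted p 8.63e-11). It lies at chr1:208022242-208244320 on the minus strand. PLXND1, known from blood vessel patterning, rose from 5682 and 5401 to 7013 and 6625 (log2 difference 0.30, SE 0.059, limma adjusted p 0.000379). The groups were apart for both genes, by far more for PLXNA2.

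The plexin B genes, which typically bind class 4 semaphorins, were all lower. PLXNB3 was at 2634 and 2444 normalised counts in vehicle and 1989 and 1931 in octanoate (log2 difference -0.37, SE 0.066, limma adjusted p 0.000115), and 20.4% of its exon bases are shared with SRPK3 on the same strand. PLXNB1 had a log2 difference of -0.27 (limma adjusted p 0.00303) and PLXNB2, the plexin with the highest level per length, one of -0.18 (0.0262). The calls of PLXNB1 and PLXNB2 were lost without vehicle 1 (limma adjusted p 0.0691 and 0.278) and without octanoate 2 (0.0523 and 0.257). PLXNB2 had 10465 and 9535 normalised counts in vehicle and 9126 and 8505 in octanoate.

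PLXNA1 was lower by a log2 difference of -0.17 (limma adjusted p 0.0291) and PLXNA3 higher by 0.20 (0.0310). PLXNA3 shares stretches of sequence with 18 other genes. PLXNA1 lost its call with TMM factors (limma adjusted p 0.0609), without vehicle 1 (0.220), without octanoate 1 (0.0543) and without octanoate 2 (0.205), and PLXNA3 without any 1 library (0.0761 to 0.157). PLXNA4 rested on 20 and 17 reads in vehicle and 5 and 10 in octanoate (limma adjusted p 0.0687), and was called without octanoate 2 (0.0303). PLXNC1, the SEMA7A receptor, had a log2 difference of 0.020 (95% interval -0.21 to 0.25).

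The neuropilins are co-receptors for class 3 semaphorins and for VEGF. NRP2 had 8579 and 7732 normalised counts in vehicle and 9258 and 9378 in octanoate (log2 difference 0.19, SE 0.060, limma adjusted p 0.0160). The call was lost without vehicle 2 (0.12, limma adjusted p 0.229) and without octanoate 2 (0.18, limma adjusted p 0.0812). NRP1 was at 6515 and 6249 in vehicle and 6712 and 6839 in octanoate and was not called (log2 difference 0.087, 95% interval -0.032 to 0.20). Per length NRP2 made up 50.6% to 53.4% of the summed level of the pair in the 4 libraries.

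**Figure D3:**
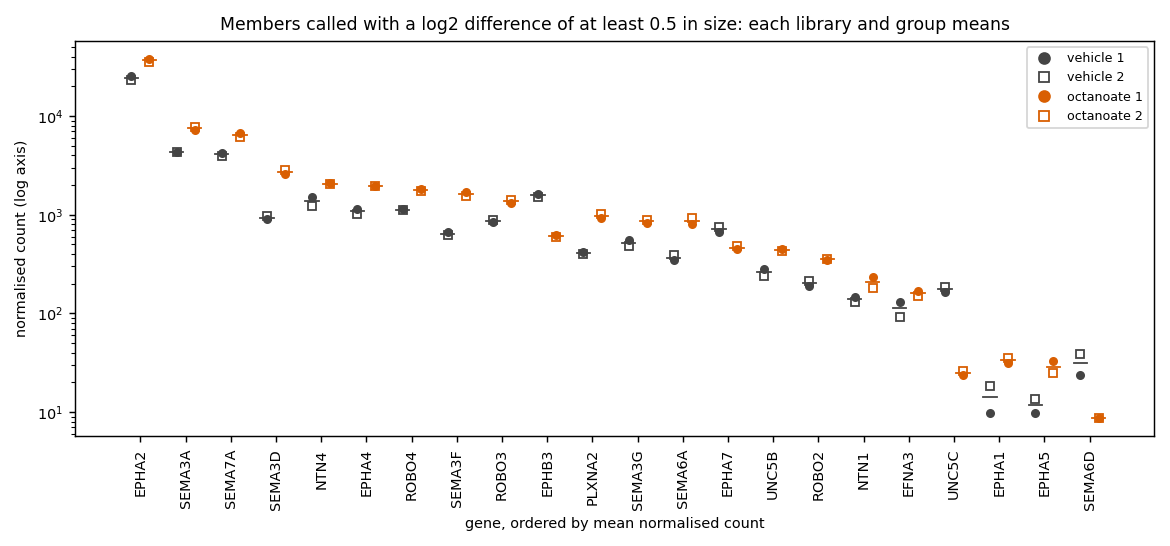
Normalised count (log axis) of the 22 members called with a log2 difference of at least 0.5 in size, with vehicle libraries in dark grey, octanoate libraries in orange and short lines for group means. Vehicle and octanoate libraries do not overlap for any of the 22, and the distance is largest for UNC5C. The 22 were chosen by their call, which favours groups that do not overlap. Over all tested genes 63.1% do not overlap.

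Ephrins of type A are tethered by a lipid anchor and those of type B span the membrane, and both can signal back into the cell that carries them. Of 7, 2 were higher and 1 lower. EFNA1, a ligand of EPHA2, had 1420 and 1221 normalised counts in vehicle and 1086 and 1004 in octanoate (log2 difference -0.33, SE 0.081, limma adjusted p 0.00275). Without vehicle 1 it was -0.23 and its call was lost (limma adjusted p 0.105). EFNB3 rose from 848 and 762 to 1077 and 1030 (log2 difference 0.39, SE 0.081, limma adjusted p 0.000665). EFNB2, the ligand of EPHB4 in blood vessels and the ephrin with the highest level per length, was at 3070 and 3147 in vehicle and 3408 and 3342 in octanoate and was not called (log2 difference 0.12, limma adjusted p 0.149), and 26.2% of its exon bases lie opposite AL138689.2. For EFNB1 and EFNA5 the log2 differences were 0.14 and -0.072, and neither was called.

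EFNA3 had 132 and 93.0 normalised counts in vehicle and 170 and 150 in octanoate (log2 difference 0.53, SE 0.17, limma adjusted p 0.0210). Its value is uncertain: 44.7% of its exon bases are shared with the overlapping gene model AL691442.1. The call was lost without vehicle 2 (0.28, limma adjusted p 0.303), without octanoate 1 (0.43, 0.119) and with DESeq2 on recovered reads (0.122). EFNA4, which shares 15.0% of its exon bases with the same model, was not called (log2 difference -0.19, limma adjusted p 0.170), but was called without vehicle 2 (-0.34, 0.0378).

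Eph receptors are the tyrosine kinases that bind ephrins. Of 12, 5 were higher and 2 lower, and 4 of the 5 that rose were of the EphA type. EPHA2, the most abundant of all 63 members, had 25219 and 23191 normalised counts in vehicle and 38111 and 35411 in octanoate, a 1.52-fold rise (log2 difference 0.60, SE 0.061, limma adjusted p 4.02e-08). It lies at chr1:16124337-16156087 on the minus strand. Per length it made up 68.2% and 67.3% of the summed Eph receptor level in vehicle and 78.3% and 77.2% in octanoate. EPHA4, which binds ephrins of both types, rose from 1136 and 1025 normalised counts to 1934 and 1978, a 1.81-fold difference (log2 difference 0.86, SE 0.073, limma adjusted p 2.04e-09).

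EPHB3 showed the largest fall among the Eph receptors. It had 1635 and 1530 normalised counts in vehicle and 630 and 601 in octanoate, a fold of 0.390 (log2 difference -1.36, SE 0.078, limma adjusted p 1.77e-12). Per length it stood behind EPHA2, EPHA3 and EPHB4 in vehicle, at 4.78 and 4.67 RPKM, and fell to 1.85 and 1.81 in octanoate, below EPHA4 and EPHB2. The gene lies at chr3:184561784-184582409 on the plus strand. EPHA7 also fell, from 674 and 751 normalised counts to 445 and 478 (log2 difference -0.63, SE 0.092, limma adjusted p 1.19e-05).

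EPHB2 rose slightly, from 1819 and 1708 to 2113 and 1996 (log2 difference 0.22, limma adjusted p 0.0159), and lost its call without vehicle 2 (0.148) and without octanoate 1 (0.142). EPHA1 and EPHA5 were called higher on few reads: 10 and 19 against 33 and 33 for EPHA1 (log2 difference 1.26, limma adjusted p 0.0112), and 10 and 14 against 34 and 23 for EPHA5 (log2 difference 1.24, limma adjusted p 0.0162). EPHA1 lost its call without vehicle 1 (limma adjusted p 0.120) and octanoate 2 (0.0775), EPHA5 without vehicle 1 (0.088) and octanoate 1 (0.165), and DESeq2 on recovered reads called neither (0.0989 and 0.111). EPHA3, second in the family at 15.2 and 15.7 RPKM in vehicle, was not called (log2 difference -0.10, 95% interval -0.22 to 0.017). EPHB4 (log2 difference -0.14, limma adjusted p 0.0975) was not called, but was under scaling to equal totals (0.0357). EPHB1 and EPHA6 were not called. EPHB6, which lacks kinase activity, was not called either, at 8 and 14 reads in vehicle and 11 and 29 in octanoate, but was without octanoate 1 (limma adjusted p 0.0291).

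Netrins are secreted proteins related to laminin, while the netrin-G pair is lipid-anchored. Of 5 tested genes 2 were higher. NTN4, a basement membrane netrin that made up 82.1% to 87.8% of the summed netrin level per length, had 1517 and 1232 normalised counts in vehicle and 2082 and 2059 in octanoate, a 1.51-fold rise (log2 difference 0.60, SE 0.080, limma adjusted p 3.12e-06). NTN1, the classical ligand of DCC and the UNC5 receptors, had 145 and 132 in vehicle and 233 and 182 in octanoate (log2 difference 0.57, SE 0.15, limma adjusted p 0.00461). Without octanoate 1, the higher of its group, the log2 difference was 0.39 and the call was lost (limma adjusted p 0.121). NTN3, NTNG1 and NTNG2 were not called, with log2 differences of -0.31, 0.25 and -0.24.

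UNC5 receptors convey repulsion by netrins, and in culture can promote cell death when the ligand is lacking. UNC5C had the largest change of all members. It was at 164 and 186 normalised counts in vehicle (167 and 192 reads) and 24.06 and 26.01 in octanoate (25 and 24 reads), a fold of 0.148 (log2 difference -2.75, SE 0.20, limma adjusted p 2.15e-10). Both octanoate libraries were far below both vehicle libraries. The gene lies at chr4:95162504-95549206 on the minus strand, and 78 of its exon bases (0.730%) lie opposite the antisense model AC106881.1.

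UNC5B, the form known from vessel sprouting, rose while UNC5C fell. It had 285 and 242 normalised counts in vehicle and 453 and 433 in octanoate (log2 difference 0.75, SE 0.11, limma adjusted p 1.06e-05). Per length UNC5C stood at 0.203 and 0.241 RPKM in vehicle and 0.0300 and 0.0331 in octanoate, and UNC5B at 0.551 and 0.490 in vehicle and 0.883 and 0.863 in octanoate. NEO1, a receptor for netrins and for RGM proteins, was at 645 and 591 normalised counts in vehicle and 643 and 707 in octanoate and was not called (log2 difference 0.13, 95% interval -0.058 to 0.31). UNC5D had 5 and 16 reads in vehicle and 8 and 19 in octanoate and was not called. DCC, the attractive netrin receptor, was below the minimum, at 2.94 and 4.84 normalised counts in vehicle and 0.963 and 1.08 in octanoate.

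Slits are large secreted ligands of the Robo receptors. SLIT2 had 1782 and 1876 normalised counts in vehicle and 1417 and 1413 in octanoate (log2 difference -0.37, SE 0.068, limma adjusted p 0.000204). SLIT1 was not called at 11 and 12 reads in vehicle and 19 and 21 in octanoate. Of the 4 Robo genes, 3 rose. ROBO2 went from 191 and 214 normalised counts to 347 and 359 (log2 difference 0.80, SE 0.12, limma adjusted p 1.01e-05), and shares 279 bases at 95.7% identity with the pseudogene ROBO2P1.

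ROBO3, known for the crossing of axons at the midline, had 835 and 894 in vehicle and 1317 and 1427 in octanoate (log2 difference 0.67, SE 0.077, limma adjusted p 3.57e-07). ROBO4, the form typical of endothelium, had 1145 and 1104 in vehicle and 1836 and 1730 in octanoate (log2 difference 0.66, SE 0.071, limma adjusted p 1.02e-07). Of the 5 tested endothelial markers 2 were also higher, PECAM1 at 121 and 122 in vehicle and 249 and 221 in octanoate, and VWF at 65.8 and 63.9 in vehicle and 89.5 and 95.4 in octanoate. CDH5, TEK and CLDN5 were not called, and the part of these genes in the ROBO4 value was not tested. ROBO3 and ROBO4 are neighbours on chromosome 11, at chr11:124865386-124881470 and chr11:124883691-124898500 on opposite strands. Of the exon bases of ROBO4, 10.6% lie opposite the antisense model AP003501.1 and 6.37% opposite AP003501.2. ROBO4 also shares stretches of sequence with 20 other genes. ROBO1, a main Slit receptor, was not called. It was at 7396 and 7273 in vehicle and 6713 and 7180 in octanoate (log2 difference -0.079, 95% interval -0.20 to 0.040). Per length ROBO1 made up 69.9% and 69.2% of the summed Robo level in vehicle and 56.8% and 58.4% in octanoate.

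**Figure D4:**
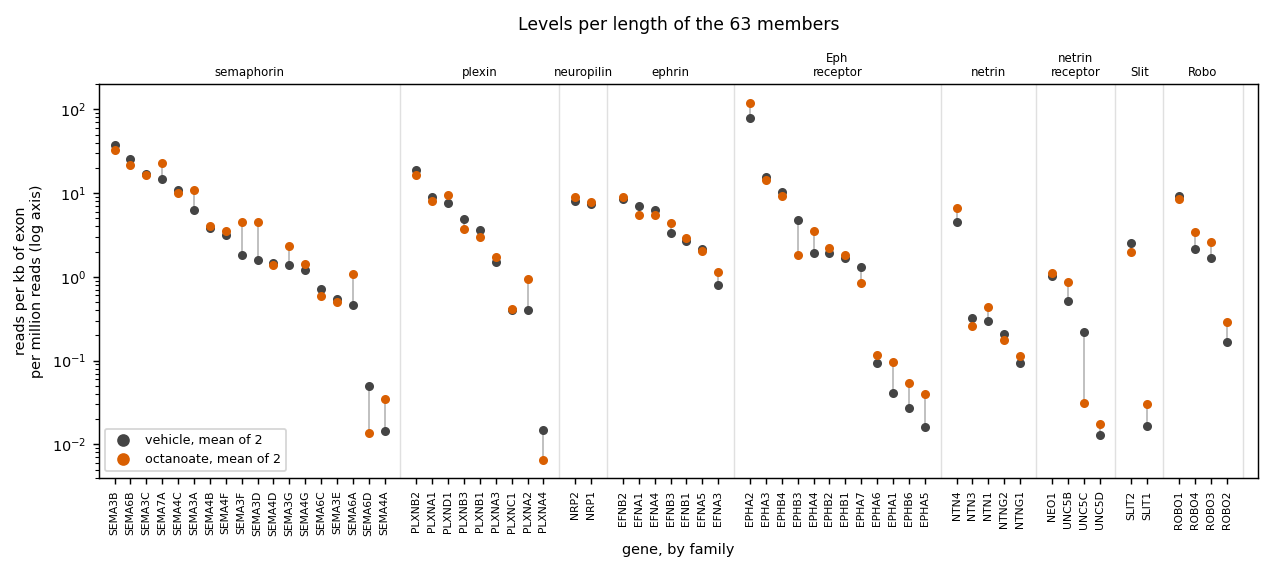
Level per length (RPKM, log axis) of the 63 members by family, with the vehicle mean in dark grey and the octanoate mean in orange. Only EPHA2 lies above 50, and UNC5C shows the widest gap between groups.

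Members that were not called had intervals that depend on their depth. Of the 27, 19 had a mean of at least 100, and for 17 of these the whole 95% interval of the log2 difference lay within 0.5 of 0. For none of the 8 with a mean under 100 did it do so, so these intervals do not exclude a change of that size. The median standard error over all tested genes was 0.42 for means from 10 to 30, where 8 members lie, and 0.062 for means of at least 1000. The 9 genes under the minimum of 10 were DCC, EFNA2, EPHA8, EPHA10, NTN5, SEMA5A, SEMA5B, SLIT3 and UNC5A, with means from 2.11 for SEMA5B to 9.87 for SEMA5A, just outside. The lowest tested member, just inside, was UNC5D with a mean of 12.2. In GENCODE 29, 16 tested members have exon bases opposite another gene, and 5 share exon bases with one on their own strand. Such partners of called members also include SEMA6A-AS1 (2.45% of the exon bases of SEMA6A), SEMA3F-AS1 (2.28% for SEMA3F), AC079834.2 (4.67% for EPHA4) and EPHA5-AS1 (5.44% for EPHA5), while 22 of the 36 called members have none. EPHA1, called on 10 to 33 reads, has 82 exon bases (1.73%) opposite ZYX, whose mean was 5954 normalised counts, so its count is uncertain. The sources used here do not state whether counting used strand. No pair of members shared a stretch of at least 100 bases at an identity of at least 95%.

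Other genes of the pathway came from 2 lists. The first holds further ligands, co-receptors and the proteases that release ephrins. Of its 30 genes 26 were tested, and 8 were higher and 5 lower, where 16.2% and 13.7% of all tested genes were. Most of the 26 had a mean of at least 100, a range in which 38.3% of all tested genes were called. The median log2 difference of these 26 was 0.20, and that of all tested genes 0.0050. NRCAM, an adhesion molecule that joins neuropilin receptor complexes, had 1654 and 1569 normalised counts in vehicle and 3742 and 4012 in octanoate (log2 difference 1.27, SE 0.065, limma adjusted p 2.40e-13). RGMA, a NEO1 ligand, fell from 152 and 151 to 89.5 and 78.0 (log2 difference -0.85, limma adjusted p 0.000292). CNTN1, an adhesion molecule of axons, rose from 217 and 197 to 336 and 339 (log2 difference 0.71, limma adjusted p 4.95e-05), and SDC2, a heparan sulphate proteoglycan, fell from 4134 and 3857 to 2601 and 2394 (log2 difference -0.68, limma adjusted p 1.51e-08).

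The second list holds 56 intracellular effectors, all tested. Of these, 15 were higher and 13 lower, against the same 16.2% and 13.7% of all tested genes, with a median log2 difference of -0.0056. Most of the 56 had a mean of at least 100, a range in which 38.3% of all tested genes were called. SRGAP1, a GTPase-activating protein that binds Robo receptors, had 1231 and 1228 normalised counts in vehicle and 2640 and 2793 in octanoate (log2 difference 1.14, SE 0.067, limma adjusted p 2.82e-12). PAK3, a kinase activated by Rac and Cdc42, rose from 48.1 and 62.97 to 177 and 181 (log2 difference 1.68, limma adjusted p 8.99e-08). NGEF, the exchange factor ephexin that acts below EphA receptors, rose from 263 and 216 to 460 and 435 (log2 difference 0.90, limma adjusted p 1.34e-06). MYO10, a myosin of filopodia, rose from 1177 and 1150 to 1824 and 1951 (log2 difference 0.70, limma adjusted p 3.98e-08). Without the intensity trend 7 effectors were called, 6 higher and 1 lower, where 8.02% of all tested genes were called. With no filter 12 were, 9 higher and 3 lower, where 5.97% of 43449 genes were. This last share includes genes below the minimum mean, which all 56 effectors passed, so it is not a like background.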

How the data were processed

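RNA of A375 cells was sequenced in 2 vehicle and 2 octanoate libraries. The submitters' processing notes name bcl2fastq 2.17, Trim Galore, STAR 2.4, Picard, HTSeq 0.9.1, DESeq2 and build hg38; annotation and strand setting are not given in the sources used here. The deposited main table gives each library a signal, the normalised count per its name. All positive values (100% in each library) were whole multiples of the library's smallest value within 0.01, so whole reads were recovered. The authors' deposited comparison holds a log2 fold change with its error, a test score and p-values.

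Normalised counts were compared as log2(value + 1) with limma 3.58.1 in R 4.3.3, treatment being the only term and the variance prior following intensity. This scale understates the change of low genes. Genes with a mean of at least 10 were tested; a gene was called at a Benjamini-Hochberg adjusted p under 0.05 over all of them. An exact permutation test of 2 against 2 libraries cannot give a two-sided p below 0.333. Replicates differed by more than sampling noise (chi-square per degree of freedom 4.77 in vehicle and 6.50 in octanoate) and were kept apart.

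Alternatives were edgeR 4.0.16 and DESeq2 1.42.0 on recovered reads, other pseudocounts, filters and scalings, no trend, a replicate block and leaving out each library. Positions, exon lengths and overlaps came from GENCODE 29 by symbol (63 of 63 members), shared sequence from blastn 2.17.0, promoters from RefSeq. Full values were to be given for members called with a log2 difference of at least 0.5 in size and the most abundant of each family, and for up to 4 list genes with the largest called difference and a mean of at least 100. Any other member could be named. Members and lists were chosen with earlier results of these data known.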

Additional observations from a re-analysis of the deposited data

How the results depend on the processing

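Of the 36 member calls, all kept their sign under every alternative, and 16 kept their call under every one that tested them. Without an intensity trend 16 members, 7 effectors and 1625 of all genes were called, and with no filter 21, 12 and 2595, against 36, 28 and 6048 under the reported settings. Both settings called only members from the 36. The cause was not tested. Pseudocounts of 0.5 and 5, edgeR and the restriction to GENCODE 29 genes called the same 36 members, TMM factors 35 of them and SEMA4A, and equal column totals all 36 and EPHB4. The restriction to GENCODE 29 genes called 35.9% of 15141 genes, against 29.9% of all tested genes under the reported settings. A filter at a mean of 50 called 33 of 53 members, since EPHA1, EPHA5 and SEMA6D were no longer tested, and 5764 of 15069 genes. DESeq2 called 30, all among the 36, of 58 members to which it gave an adjusted p, where it called 27.5% of all genes. On recovered reads edgeR called 6480 of all genes. Leaving out 1 library gave 27 to 32 called members and 4295 to 4757 of all genes, and 21 of the 36 were called without each library in turn. A lone library is then assumed to vary like the other group. The median log2 difference of the members ran from 0.12 to 0.17 over all alternatives.

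What a replicate number marks is not in the labels, and only 2 pairs exist. Deviations from the group mean correlated at 0.13 between same-numbered libraries. With the number as a replicate block, 43 members were called, including all 36 (EFNB2, EPHA3, EPHB4, PLXNA4, SEMA4A, SEMA4F and SEMA6C were added), as were 17 genes of the first list, 37 effectors and 8376 of all genes. The restriction to GENCODE 29 genes and a fit that removes trends with GC content and length were added after seeing the data. The latter called 43 members, including all 36. It covered 63 of 63 members and 15141 of the 20250 tested genes, so as a check over all genes it is void.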
